A study of Mus musculus with 9 samples.

Results

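Genes of the circadian clock were examined in RNA sequencing of adipose tissue from mice. The set was given by name: Clock, the period genes Per1, Per2 and Per3, the nuclear receptor genes Nr1d1 and Nr1d2, the transcription factor genes Dbp and Tef, and Noct. Of these 9 genes, 7 had a row in the count table, which holds 3958 genes, sorted from the highest total count down; Per2 and Dbp were not analysed here. The tissue came from male C57BL/6J mice, an inbred strain widely used to study diet-induced obesity, at day 21. The series design names a normal-diet group, a high-fat-diet group and a group on high-fat diet with electroacupuncture, a treatment that stimulates acupuncture points electrically. In the labels 3 libraries, titled APX with the numbers 5, 7 and 8, have EA as their treatment and are called EA here. The remaining titles begin with CPX (4, 6, 8) or MPX (2, 5, 7). Nothing in the labels ties either of these prefixes to a diet, so comparisons are named by prefix alone. The labels name neither the fat depot, nor the mouse age, nor the hour at which tissue was taken, nor whether each library came from 1 mouse. P-values therefore measure the spread between these libraries, which may be partly technical.

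The mammalian clock is a loop of transcription with a period of about a day that runs in most cells, fat cells included. The protein CLOCK pairs with BMAL1 and switches on genes through E-box sequences, among them the period genes and the nuclear receptor genes Nr1d1 and Nr1d2. Period proteins then block CLOCK, and the receptors NR1D1 and NR1D2 (REV-ERB alpha and beta) repress the gene for BMAL1. Tef encodes a factor that carries the rhythm to other genes through D-box sequences, and Noct encodes nocturnin, a phosphatase known for its strong daily rhythm and its role in fat storage. Levels of most of these genes follow the hour of day, and the part of sampling hour in the differences below was not tested.

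The upstream sequences of 5 of these genes are shown because their levels carry the results below: Tef, Nr1d2 and Per3, whose levels were related across libraries, Per1, whose relation to Tef was looser, and Noct, whose levels separated CPX from the other groups. Each run is the 250 bases before a transcription start, read 5′ to 3′ on the strand of the gene, taken from RefSeq (mm10, GRCm38.p6). Capitals mark matches to an E-box (CACGTG), a D-box (TTATGTAA) or a D-box variant (TTATGCAA), searched on both strands.
Per3, chr4:151044666-151044915, minus strand: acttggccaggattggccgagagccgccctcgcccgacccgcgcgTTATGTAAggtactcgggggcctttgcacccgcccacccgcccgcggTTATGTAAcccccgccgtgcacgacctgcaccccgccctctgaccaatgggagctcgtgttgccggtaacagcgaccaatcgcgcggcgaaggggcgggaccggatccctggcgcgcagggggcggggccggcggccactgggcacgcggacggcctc
Tef, chr15:81811164-81811413, plus strand: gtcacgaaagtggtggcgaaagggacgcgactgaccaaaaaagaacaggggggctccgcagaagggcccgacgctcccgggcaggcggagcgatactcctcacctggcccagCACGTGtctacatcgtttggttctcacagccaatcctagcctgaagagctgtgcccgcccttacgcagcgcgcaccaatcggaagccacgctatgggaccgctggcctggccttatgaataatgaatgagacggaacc
Nr1d2, chr14:18239107-18239356, minus strand: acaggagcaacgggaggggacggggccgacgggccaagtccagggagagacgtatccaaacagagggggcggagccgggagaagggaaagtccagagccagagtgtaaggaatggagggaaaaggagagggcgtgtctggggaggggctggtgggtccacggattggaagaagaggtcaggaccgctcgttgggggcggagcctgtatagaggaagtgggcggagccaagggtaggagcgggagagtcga
Per1, chr11:69098699-69098948, plus strand: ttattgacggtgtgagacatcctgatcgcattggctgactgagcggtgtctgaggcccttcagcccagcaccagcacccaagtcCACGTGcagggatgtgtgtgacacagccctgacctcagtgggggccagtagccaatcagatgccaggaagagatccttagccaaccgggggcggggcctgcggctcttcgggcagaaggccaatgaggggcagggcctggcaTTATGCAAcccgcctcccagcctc
Noct, chr3:51224197-51224446, plus strand: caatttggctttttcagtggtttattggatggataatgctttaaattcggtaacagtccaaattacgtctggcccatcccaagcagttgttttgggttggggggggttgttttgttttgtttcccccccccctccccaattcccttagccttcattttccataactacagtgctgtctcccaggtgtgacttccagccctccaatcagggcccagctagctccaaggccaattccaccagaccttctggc
The Per3 sequence held 2 copies of the D-box, which begin 205 and 158 bases before the start. The D-box was found in 0.819% of 32851 promoter windows of the same length, and the D-box variant in 0.694%. Both listed starts of Tef had 1 E-box, and the Per1 window had 1 E-box and 1 D-box variant; 6.02% of all windows held an E-box. In the Nr1d1 window 1 copy of the E-prime box (CACGTT, here on the other strand as AACGTG) was found, a sequence present in 3.85% of windows. The cyclic AMP response element (TGACGTCA, in 1.55% of windows), the core of the ROR element (TAGGTCA, in 2.23%) and the full palindromic glucocorticoid response element (in 0.00913%) had no match in the windows of the 7 genes, nor did any of these motifs match the windows of Noct, Nr1d2 or Clock, or the other Per1 start. These are matches of letters in short windows and not measured binding sites. The printed Per3, Tef and Noct runs lie outside the annotated exons of their genes, while 0.4% of the Per1 run and 8.4% of the Nr1d2 run lie inside one. The Nr1d2 run, from the gene most closely related to Tef in level, holds none of the motifs searched.

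All 7 genes are annotated as protein coding, and their positions in the table equal those of GENCODE M21. Clock (ENSMUSG00000029238) lies on chromosome 5 (mm10, 76209868 to 76304792, minus strand), Per1 on chromosome 11 (69095217 to 69109960, plus strand) and Per3 on chromosome 4 (151003652 to 151044665, minus strand). Nr1d1 lies on chromosome 11 (98767932 to 98775333, minus strand), Nr1d2 on chromosome 14 (18204054 to 18239127, minus strand), Tef on chromosome 15 (81802421 to 81826863, plus strand) and Noct (ENSMUSG00000023087) on chromosome 3 (51224447 to 51251644, plus strand). Nr1d1 shares 263 exon bases, 8.55% of its own, with Thra, a thyroid hormone receptor gene on the opposite strand. The strand setting of the counting is not given in the sources used here, so reads from the shared bases cannot be told apart. Noct stood near the end of the table, in place 3940 by total count, with 8502 reads over the 9 libraries.

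Listed counts added up to between 12115183 and 14208853 per library, which is not the full depth because further genes are not in the table. Levels are given as CPM, counts scaled to a common total of listed counts with TMM factors. CPX 4 and CPX 6 were the least alike pair within a group, with a Spearman correlation over genes of 0.187; within EA it was at least 0.795 and within MPX at least 0.873. All 24 adipocyte genes that were listed were detected in every library, but their summed level ran from 13426 (CPX 6) to 144359 CPM (CPX 4) in CPX, from 82683 to 96676 CPM in MPX and from 51094 to 80765 CPM in EA. The sum of 12 B cell genes was highest in CPX 6, at 11539 CPM against 1815 to 4942 CPM in the other CPX libraries, 738 to 1430 CPM in MPX and 1674 to 4597 CPM in EA. These 12 were the ones with a row among 17 B cell genes looked for. Gene by gene their difference was larger than these sums show, with a median log2 difference of 6.19 for EA minus MPX, -6.27 for MPX minus CPX and -0.05 for EA minus CPX. Plasma cell genes (6 listed of 10) summed to between 394 and 509 CPM in MPX, 1099 and 8051 CPM in EA and 1871 and 24663 CPM in CPX. All 6 lay wholly lower in MPX than in CPX (median -8.19), beside 7.71% of all genes. The 3 mast cell genes listed, of 7, had a median difference of 2.16 for EA minus MPX and -1.66 for MPX minus CPX. Rows end at a total count of 8471, so genes of these cell types may be listed only through the groups where they are high. Their medians and counts cannot be told apart from this cut. Genes encoded in mitochondria summed to 151807 CPM in CPX 4 and to between 29892 and 59451 CPM elsewhere. Marker genes listed for T cells, skeletal muscle, brown fat or retina had no row; the labels' extraction text names retinas as the tissue, while the tissue label is adipose. In bulk tissue, fewer cells of a type and less RNA per cell cannot be told apart, and the part of cell makeup in the values below was not tested.

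Across the 7 genes, Noct separated the groups most clearly. Its total of 8502 reads lay just above the lowest total in the table, 8471. With counts like those of CPX (295 to 552) in every library, Noct would have had no row. It is thus listed through MPX and EA, where it was higher, and its separation cannot be told apart from this cut. Noct, the output gene for nocturnin, was at 34.8 CPM in CPX 4, 22.6 CPM in CPX 6 and 43.5 CPM in CPX 8. In MPX it was at 72.3, 93.8 and 120.7 CPM (numbers 2, 5 and 7), and in EA at 104.4, 62.5 and 72.0 CPM (numbers 5, 7 and 8). Every CPX library lay below every MPX and EA library, while MPX and EA overlapped. Among all listed genes 8.46% lay wholly higher in MPX than in CPX and 2.1% wholly higher in EA than in CPX. The group means were 33.6 ± 10.5 CPM in CPX, 95.6 ± 24.2 CPM in MPX and 79.7 ± 21.98 CPM in EA (SD, n = 3 each), and the fitted level in MPX was 2.84-fold that in CPX. The log2 difference was 1.51 (SE 0.32) for MPX minus CPX and 1.24 (SE 0.32) for EA minus CPX. These comparisons share the CPX libraries. The adipocyte marker sums of CPX 4, CPX 6 and CPX 8 were 144359, 13426 and 78377 CPM, and their part in the Noct levels was not tested.

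By edgeR's quasi-likelihood test over all listed genes, neither Noct difference passed: the edgeR adjusted p was 0.362 for MPX minus CPX (unadjusted p = 0.00144) and 0.997 for EA minus CPX (unadjusted p = 0.00434). In the test for any difference among the 3 groups, Noct had the 15th smallest p of all genes (edgeR adjusted p = 0.663). The call turned with the tool: DESeq2 called Noct between MPX and CPX (DESeq2 adjusted p = 0.000821), where it called 5.1% of all genes, but not between EA and CPX (DESeq2 adjusted p = 0.0852), where it called 0.127%. It also turned with 1 library, since without CPX 8 the difference was 1.77 (edgeR adjusted p = 0.0486) and 4.24% of all genes were called. Over the alternatives tried, the MPX minus CPX difference stayed positive, from 1.16 to 1.77, with adjusted p from 0.000821 to 0.797. The EA minus CPX difference ran from 0.73 to 1.47.

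**Figure D1:**
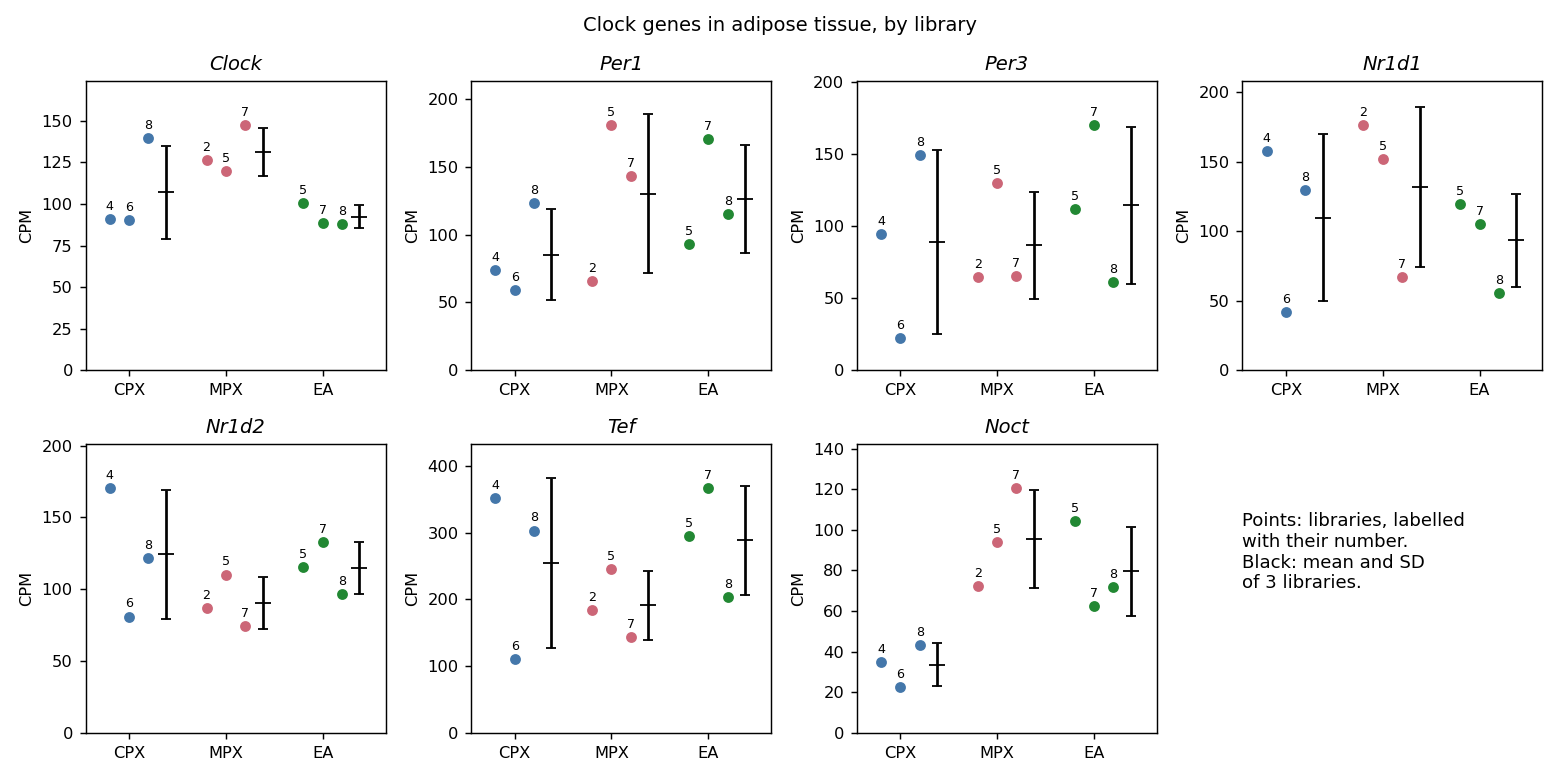
Level of each clock gene (CPM, y axis from 0) in every library of CPX, MPX and EA; points are libraries labelled with their number, and black bars are the mean and SD of 3 libraries. Noct is the panel in which all CPX points (22.6 to 43.5 CPM) lie below all others, and Clock is the panel in which all EA points (88.2 to 100.3 CPM) lie below all MPX points.

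Clock, the activator at the head of the loop, varied least. It was at 90.7, 90.6 and 139.4 CPM in CPX (numbers 4, 6 and 8), at 126.3, 119.7 and 147.4 CPM in MPX (2, 5 and 7), and at 100.3, 88.8 and 88.2 CPM in EA (5, 7 and 8). All EA libraries lay below all MPX libraries, and CPX 8 lay among the MPX values. The EA minus MPX difference was -0.50 (SE 0.22, unadjusted p = 0.0520), with an edgeR adjusted p = 0.775. Over the alternatives it stayed between -0.59 and -0.41, with adjusted p from 0.0712 to 0.998. Ranges of EA and MPX failed to overlap for many genes, 19% of all being lower in EA and 21.5% higher, so the separation of 1 of 7 clock genes is no more than the background.

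The period genes encode repressors of CLOCK. Per1 was at 73.7, 58.8 and 123.0 CPM in CPX, at 65.8, 180.6 and 143.4 CPM in MPX, and at 93.0, 170.8 and 114.9 CPM in EA, in the order of library numbers. The groups overlapped, with the highest value in MPX 5 and the lowest in CPX 6. Per3 was at 94.5, 22.2 and 149.4 CPM in CPX, at 65.0, 129.7 and 65.6 CPM in MPX, and at 111.7, 170.1 and 61.4 CPM in EA. It had the widest range of the 7 genes, 7.67-fold from CPX 6 to EA 7, which is wider than in 88.0% of all listed genes (median 2.67-fold). That width rests on CPX 6: the next lowest value was 61.4 CPM in EA 8, and from EA 8 to EA 7 the range was 2.77-fold. The fitted Per3 differences were small beside their errors: 0.40 (SE 0.65) for EA minus MPX, 0.37 (SE 0.65) for EA minus CPX and -0.03 (SE 0.65) for MPX minus CPX. Those of Per1 were -0.04 (SE 0.43), 0.57 (SE 0.44) and 0.61 (SE 0.44) in the same order. No Per1 or Per3 difference passed the test, with edgeR adjusted p of at least 0.509.

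Nr1d1 and Nr1d2 encode the repressors of the gene for BMAL1. Nr1d1 was at 157.4, 42.1 and 129.4 CPM in CPX, at 176.2, 151.8 and 66.8 CPM in MPX, and at 119.3, 105.3 and 55.5 CPM in EA. In each group 1 library was low: CPX 6, MPX 7 and EA 8. Nr1d2 was at 170.6, 81.0 and 121.5 CPM in CPX, at 86.7, 110.3 and 74.1 CPM in MPX, and at 115.7, 132.8 and 96.4 CPM in EA, and the same 3 libraries were the lowest of their groups. The groups overlapped for both genes. The EA minus MPX difference was -0.49 (SE 0.55) for Nr1d1 and 0.35 (SE 0.30) for Nr1d2. The EA minus CPX differences were -0.23 (SE 0.55) and -0.11 (SE 0.30), and the MPX minus CPX differences 0.26 (SE 0.55) and -0.46 (SE 0.30). The count ratio of Nr1d1 to Nr1d2 was 2.03, 1.38 and 0.902 in MPX, 1.03, 0.793 and 0.576 in EA, and 0.922, 0.519 and 1.06 in CPX. Thra, the overlapping gene, stood at 138.9 ± 16.5 CPM in MPX, 87.2 ± 23.6 CPM in EA and 102.9 ± 47.3 CPM in CPX (SD, n = 3 each).

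Tef, the D-box factor, was at 351.0, 110.1 and 303.0 CPM in CPX, at 184.1, 245.2 and 143.1 CPM in MPX, and at 294.8, 367.0 and 202.9 CPM in EA. Means were 288.2 ± 82.2 CPM in EA and 190.8 ± 51.4 CPM in MPX, with overlap because MPX 5 exceeded EA 8. The differences were 0.60 (SE 0.44) for EA minus MPX, 0.18 (SE 0.44) for EA minus CPX and -0.42 (SE 0.44) for MPX minus CPX. Without CPX 6 the EA minus CPX difference of Tef turned to -0.19 and that of Per3 to -0.10.

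Counted by comparison, 0 of 7 clock genes passed edgeR's adjusted threshold of 0.05 between EA and MPX, between EA and CPX, between MPX and CPX, or in the test for any difference, where 0% of all genes passed in each case. At an unadjusted p under 0.05 there were 0 of 7 between EA and MPX, where 5.1% of all genes were found. There was 1 of 7 (Noct) between EA and CPX, beside 2.96% of all genes (0.96% higher in EA, 2% lower), and 1 of 7 (Noct) between MPX and CPX, beside 13.2% of all genes (4.98% higher in MPX, 8.21% lower). In the any-difference test Noct was again the 1 clock gene, beside 7.12% of all genes. DESeq2 called Noct between MPX and CPX and in the any-difference test (2.49% of all genes) and no clock gene elsewhere, and limma voom called 0. Noct was also the 1 gene of the 7 whose ranges did not overlap between EA and CPX (2.1% of all genes were wholly higher in EA and 5.08% wholly lower) or between MPX and CPX (8.46% wholly higher in MPX and 7.71% wholly lower). As given above, Noct is listed through MPX and EA, so the counts against CPX cannot be told apart from the cut at a total count of 8471. The median log2 difference of the 7 genes was -0.04 for EA minus MPX, 0.18 for EA minus CPX and 0.26 for MPX minus CPX, against 0.01, -0.09 and -0.11 over all genes.

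**Figure D2:**
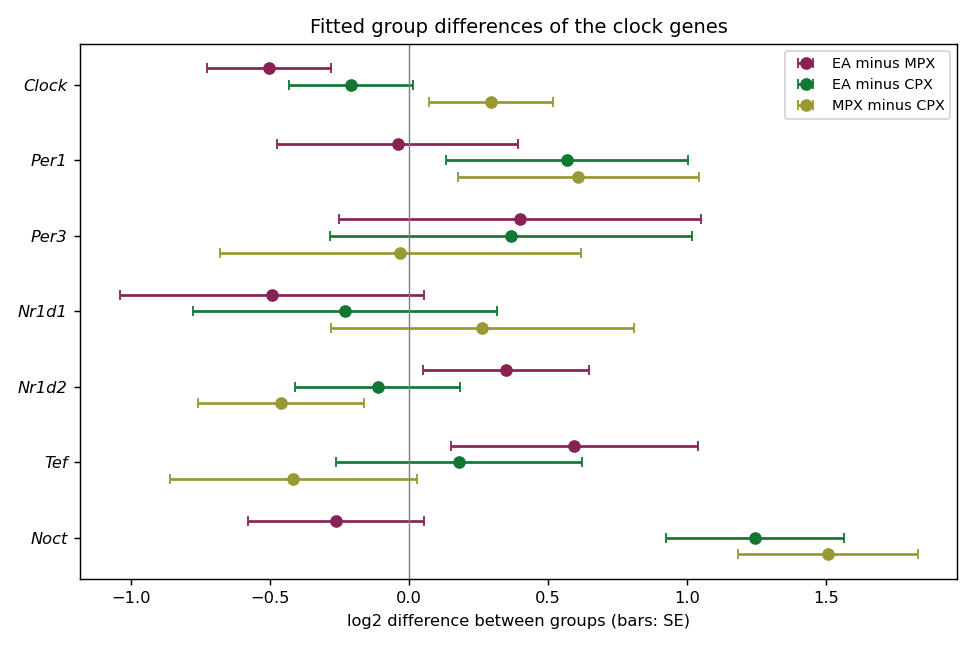
Log2 difference between groups (x axis) of the 7 clock genes from the edgeR fit of all 9 libraries, with SE as bars, for the 3 comparisons. The Noct differences against CPX, 1.24 and 1.51, stand farthest from 0, and the others lie between -0.50 and 0.61.

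Levels were also set beside each other per length. Nr1d1 had the highest mean, 36.25 CPM per kilobase of exon, followed by Tef at 31.1, Nr1d2 at 20.3, Per1 at 20.2, Per3 at 10.1, Clock at 8.02 and Noct at 6.53 (means over 9 libraries). Most neighbours in this order were not separated: Nr1d1 exceeded Tef in 6 of 9 libraries, Nr1d2 exceeded Per1 in 5, Per3 exceeded Clock in 5 and Clock exceeded Noct in 5. Tef exceeded Nr1d2 in 8 of 9, and Per1 exceeded Per3 in 9 of 9.

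The genes varied together to very different degrees across the 9 libraries. Tef and Nr1d2 had the closest relation of the 21 pairs on the log2 CPM scale: Pearson's r was 0.910 (exact permutation p = 0.000711, adjusted over 21 pairs 0.0145) and Spearman's rho 0.967 (exact permutation p = 0.000165, adjusted 0.00347). Without the 2 libraries farthest from the median of Nr1d2 (CPX 4 and MPX 7) r was 0.959, and around the group means it was 0.951. Nr1d2 had the highest r with Tef of all 3957 other genes. Tef and Per3 had r = 0.886 (exact permutation p = 0.00138, adjusted 0.0145) and rho = 0.817 (exact permutation p = 0.0108, adjusted 0.113). Without CPX 6 and EA 7 this r was 0.729, and around the group means it was 0.942. Of 3957 genes 5 had an r with Tef at least as high as Per3, which is counted among them.

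Other pairs were looser. Nr1d1 and Tef had r = 0.676 and rho = 0.400, with r = 0.373 without CPX 6 and EA 8 and 0.909 around the group means, and 4.27% of all genes had an r with Tef at least that high. Tef and Per1 had r = 0.365 (28% of genes were at least as high), and Tef and Noct had r = 0.104. Clock had r = -0.195 with Tef and -0.391 with Nr1d2. Of the 21 pairs 18 had a positive r and 3 a negative one; 2 passed the adjusted threshold by Pearson's r and 1 by Spearman's rho. The permutations exchanged all 9 libraries without regard to group, and r around the group means was not tested. All these relations share the same libraries, whose marker sums differ as given above, and CPX 6 was the lowest library for Tef, Per1, Per3, Nr1d1 and Noct.

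**Figure D3:**
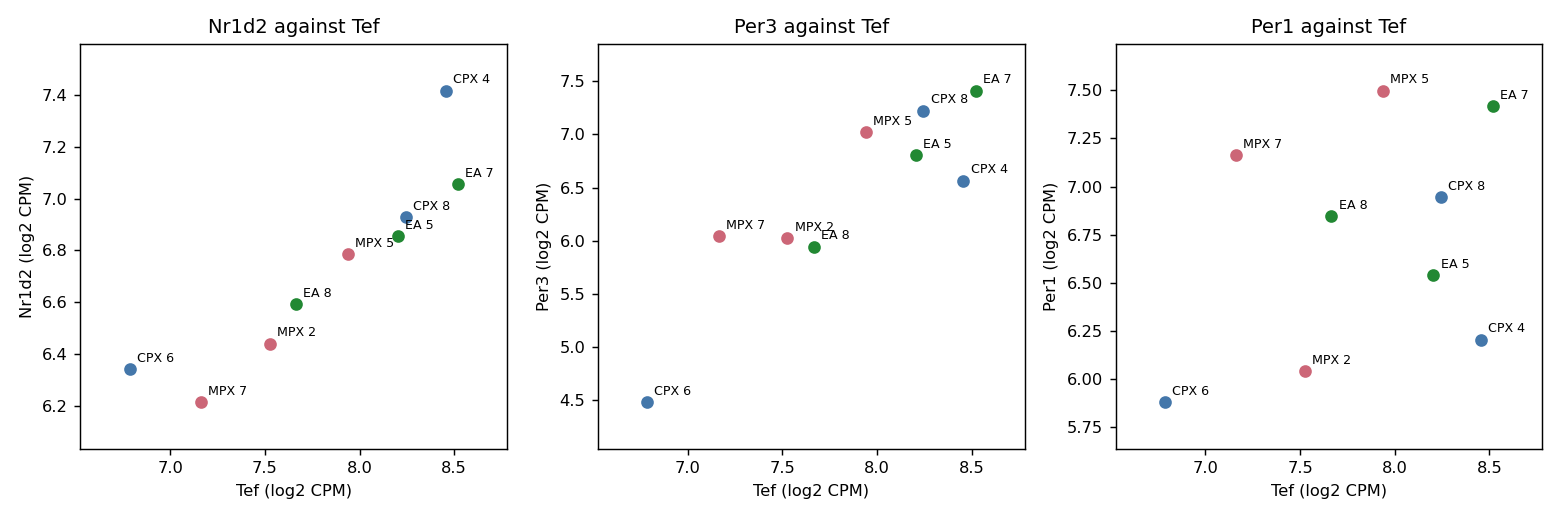
Nr1d2, Per3 and Per1 (y axes, log2 CPM) against Tef (x axes, log2 CPM) in the 9 libraries, coloured by group and labelled. Nr1d2 and Per3 lie along a rising line (r = 0.910 and 0.886) that mixes the groups, and Per1 does not (r = 0.365).

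Within groups the libraries differed in which clock gene was high. In MPX 2 Nr1d1 exceeded Per1 by a count ratio of 2.68, whereas in MPX 5 the ratio was 0.840 and in MPX 7 it was 0.466. The same ratio was 2.14, 0.715 and 1.05 in CPX 4, 6 and 8, and 1.28, 0.617 and 0.483 in EA 5, 7 and 8. Each group held libraries on both sides of 1. Because a ratio inside a library does not depend on scaling, Clock was also used as the common partner. The log2 ratio of Noct to Clock was -1.69 ± 0.31 in CPX, -0.48 ± 0.28 in MPX and -0.25 ± 0.28 in EA (SD, n = 3 each), and again no CPX library reached the others. Relative to Clock, Tef stood at 1.60 ± 0.42 in EA and 0.51 ± 0.54 in MPX, and Nr1d2 at 0.31 ± 0.24 and -0.55 ± 0.44, with no overlap for either. That separation has to be read beside Clock itself, which was low in EA: 59.5% of all genes had EA ratios to Clock wholly above those of MPX, and 1.36% wholly below. For Noct against CPX the background was smaller, with 6.39% of genes wholly higher and 0.202% wholly lower in EA, and 3.54% wholly higher and 10.1% wholly lower in MPX. Noct is listed through MPX and EA, however, so its ratios too cannot be told apart from the cut at a total count of 8471. Per1 relative to Clock was also wholly higher in EA (0.41 ± 0.53) than in CPX (-0.37 ± 0.23). These ratios are descriptions without a test.

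**Figure D4:**
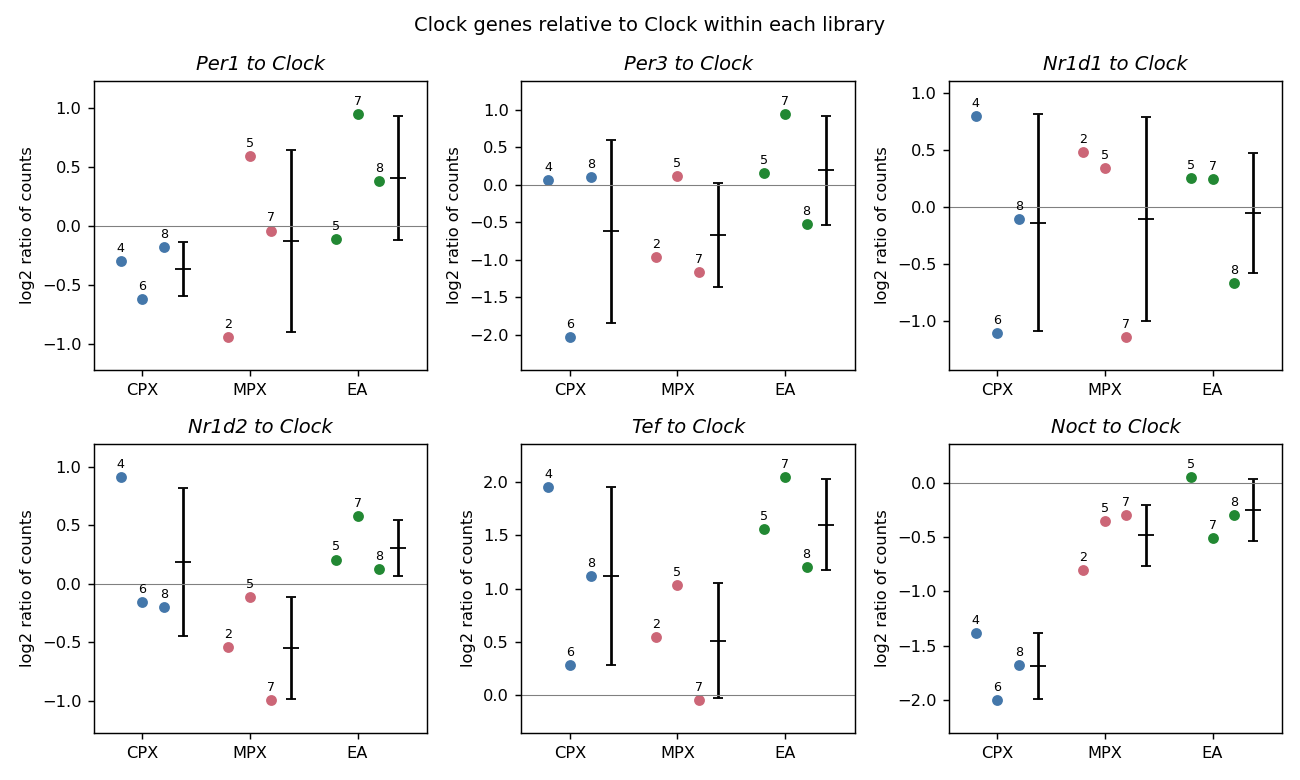
Log2 ratio of each clock gene to Clock within every library (y axes) for CPX, MPX and EA, with mean and SD of 3 libraries in black and a grey line at 0, where both have equal counts. Noct to Clock is between -2 and -1.38 in CPX and at or above -0.80 in the other 6 libraries.

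Other parts of the clock were listed for 10 of 26 genes. By edgeR, DESeq2 and limma voom alike 0 of 10 passed the adjusted threshold in the 3 comparisons. In edgeR's test 0 of 10 had an unadjusted p under 0.05 in each comparison. Among all genes that share was 5.1% for EA minus MPX, 2.96% for EA minus CPX and 13.2% for MPX minus CPX. Cry2, a cryptochrome that acts with the period proteins, was at 80.6, 29.2 and 79.2 CPM in CPX, at 99.6, 136.3 and 87.9 CPM in MPX and at 97.4, 99.7 and 57.9 CPM in EA. All 3 MPX libraries of Cry2 lay above all CPX libraries, a difference of 0.78 (SE 0.41, edgeR adjusted p = 0.414). Cry2 was the 1 of 10 wholly higher in MPX than in CPX, beside 8.46% of all genes, and 2 of 10 were wholly lower, beside 7.71%. Rora, a receptor that competes with NR1D1 and NR1D2 for the same sites, was at 113.5, 50.3 and 106.7 CPM in CPX, 68.0, 82.3 and 83.7 CPM in MPX and 63.3, 68.8 and 49.6 CPM in EA. Prkaa1, a catalytic subunit of the kinase AMPK that acts on cryptochromes, was at 74.3, 82.4 and 61.6 CPM in EA, all below the MPX values of 112.2, 87.1 and 86.0 CPM, a difference of -0.39 (SE 0.21, edgeR adjusted p = 0.775). It was the 1 of 10 wholly lower in EA than in MPX, beside 19% of all genes. The median difference of the 10 genes was -0.14 for EA minus MPX, -0.13 for EA minus CPX and -0.07 for MPX minus CPX.

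Of 27 genes on a list of clock-driven outputs 12 were listed, and 0 passed edgeR's adjusted threshold; DESeq2 called 2 between MPX and CPX, among them Herpud1, beside 5.1% of all genes, and limma voom 0. Their median difference was 0.23 for EA minus MPX, 0.20 for EA minus CPX and 0.22 for MPX minus CPX. At an unadjusted p under 0.05 there were 2 between EA and MPX (beside 5.1% of all genes), 0 between EA and CPX (2.96%) and 3 of 12 between MPX and CPX (13.2%). Herpud1, a protein of endoplasmic reticulum quality control, was at 126.0, 150.3 and 221.9 CPM in EA and at 90.4, 94.6 and 92.6 CPM in MPX, a difference of 0.84 (edgeR adjusted p = 0.775). In CPX it was at 164.3, 197.6 and 125.1 CPM, with an EA minus CPX difference of 0.03. Cdkn1a, a cell cycle inhibitor, was at 35.3, 48.6 and 69.2 CPM in EA and 59.9, 88.3 and 225.7 CPM in MPX, a difference of -1.29 (edgeR adjusted p = 0.775). Its CPX values were 55.3, 56.6 and 58.0 CPM, with an EA minus CPX difference of -0.15. Because rows end at a total count of 8471, Cdkn1a may be listed only through MPX, where it was highest. Its difference, and the counts above that include it, cannot be told apart from this cut. Nampt, which makes a precursor of NAD, was at 244.2, 220.5 and 178.0 CPM in EA, all above the MPX values of 137.0, 106.0 and 140.4 CPM. The CPX values of Nampt, 422.8, 111.7 and 223.8 CPM, overlapped those of EA. Herpud1, Nampt and Tspan4 made 3 of 12 output genes wholly higher in EA than in MPX, beside 21.5% of all genes.

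Per1 is also known to respond to glucocorticoids and to acute stimuli, so genes of both responses were set beside it. Of 16 glucocorticoid-responsive genes 14 were listed and 0 passed the adjusted threshold by edgeR, DESeq2 or limma voom. At an unadjusted p under 0.05 edgeR had 3 of 14 between EA and MPX, beside 5.1% of all genes, 1 between EA and CPX, beside 2.96%, and 2 between MPX and CPX, a share near the 13.2% of all genes. The 3 between EA and MPX differed in direction: 1 was higher in EA (Fkbp5) and 2 were lower (Dusp1 at -1.26 and Cdkn1a at -1.29). As given above, Cdkn1a may be listed only through MPX, so counts that include it cannot be told apart from that cut. Of the 14, 8 had positive and 6 negative differences for EA minus MPX (median 0.03). Fkbp5, a chaperone partner of the glucocorticoid receptor, was at 184.4, 225.2 and 215.5 CPM in EA, at 60.1, 95.5 and 153.6 CPM in MPX and at 116.7, 106.0 and 125.6 CPM in CPX. All EA libraries lay above all other libraries. The difference was 1.02 (SE 0.32) against MPX and 0.84 (SE 0.32) against CPX, with edgeR adjusted p = 0.775 and 0.997. Fkbp5 was the 1 of 14 genes wholly higher in EA than in MPX, beside 21.5% of all genes, and 1 of 14 was wholly lower, beside 19%. It was also the 1 of 14 wholly higher in EA than in CPX, beside 2.1% of all genes. Sgk1, a kinase gene on the same list, overlapped in all comparisons, with differences of -0.37 (SE 0.26) for EA minus MPX and 0.18 (SE 0.26) for EA minus CPX, and so did Pdk4, with 0.24 (SE 0.60) and 0.89 (SE 0.60).

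Immediate early genes are switched on quickly by stimuli such as stress or handling. Of 22 such genes 10 were listed. All 10 had negative differences for EA minus MPX (median -0.61) and positive ones for MPX minus CPX (median 0.81), comparisons that share the MPX libraries. For EA minus CPX 5 were positive and 5 negative (median -0.08). Rows end at a total count of 8471, so a gene can be listed through a group where it is high. Fos and Egr1 had most of their counts in MPX. Signs and counts of the listed 10 therefore cannot be told apart from this cut. By edgeR 0 passed the adjusted threshold. At an unadjusted p under 0.05, 5 of 10 were lower in EA than in MPX, beside 3.01% of all genes, and 6 of 10 higher in MPX than in CPX, beside 4.98%. Between EA and CPX there were 0 of 10, beside 2.96% of all genes. DESeq2 called Fos, Egr1 and Cyr61 between EA and MPX, where it called 1.24% of all genes, and Fos and Jun between MPX and CPX, where it called 5.1%. With limma voom 0 of 10 were called. Fos was at 350.5, 22.6 and 180.7 CPM in MPX 2, 5 and 7, and Egr1 at 347.1, 46.8 and 200.1 CPM. In EA, Fos was at 13.2, 17.2 and 30.0 CPM and Egr1 at 18.3, 29.8 and 34.1 CPM, with EA minus MPX differences of -3.20 (SE 0.93) and -2.85 (SE 0.78). In CPX, Fos was at 9.9, 22.5 and 41.0 CPM and Egr1 at 17.6, 85.0 and 57.1 CPM. The EA minus CPX differences were -0.28 (SE 0.86) and -0.96 (SE 0.74). MPX 2, the highest library for both, was the lowest of MPX for Per1, and MPX 5, the lowest for both, was the highest for Per1. Dusp1, a phosphatase on both lists, was at 231.1, 184.9 and 262.9 CPM in MPX and at 90.9, 119.1 and 72.8 CPM in EA, a difference of -1.26 (SE 0.39, edgeR adjusted p = 0.775). Its CPX values were 99.2, 55.1 and 162.6 CPM, with an EA minus CPX difference of -0.16 (SE 0.38).

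**Figure D5:**
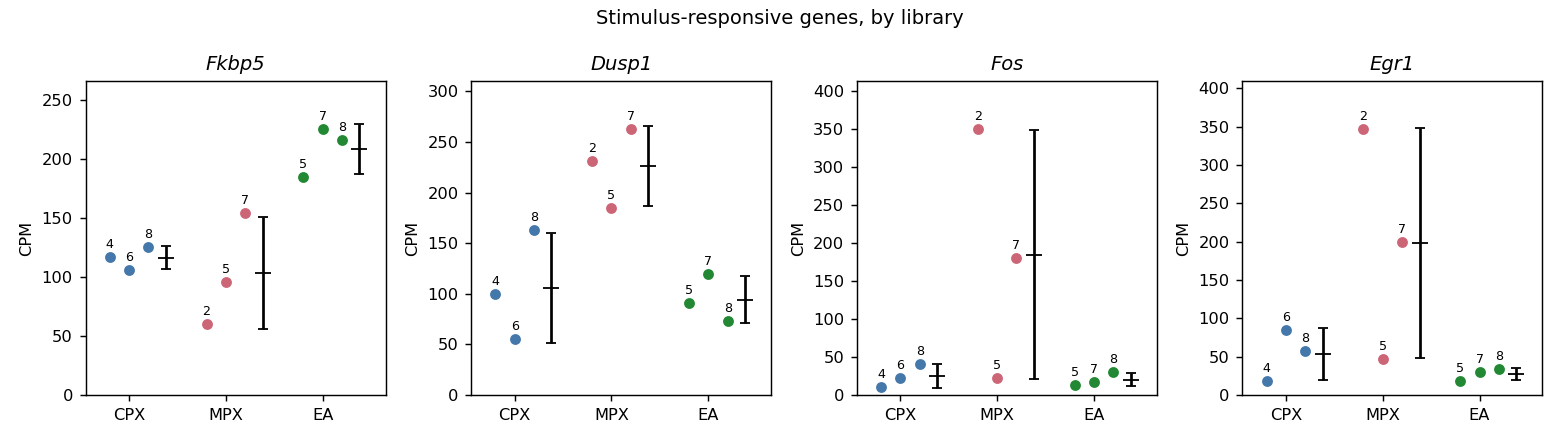
Levels (CPM, y axes from 0) of Fkbp5, Dusp1, Fos and Egr1 in every library, with mean and SD of 3 libraries in black. Fkbp5 is highest in the 3 EA libraries (184.4 to 225.2 CPM), and Fos and Egr1 are high in MPX 2 and MPX 7 but not in MPX 5.

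For each clock gene the 2 other genes with the most similar profile were taken, by the mean absolute difference of log2 CPM after each gene was centred on its own mean over the 9 libraries. For Noct these were Gas2l1 (0.28) and Rhbdf1 (0.28), against a median of 0.68 over all genes, and for Per1 they were Adgrg1 (0.21) and Luzp1 (0.21). For Per3 they were Fmo2 (0.20), which is on the list of clock-driven outputs, and Angptl2 (0.27). For Nr1d1 the nearest was Thra (0.25), the gene that shares exon bases with it, followed by Tob1 (0.25). For Nr1d2 they were Ube2q2 (0.14) and Uap1 (0.17), and for Tef Klhl2 (0.17) and Tspan4 (0.23), the latter on the output list. Clock lay nearest to Calu (0.09) and Golim4 (0.09), so its small variation had close matches.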

How the data were processed

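RNA was measured in 9 libraries, 3 in each of CPX, MPX and EA, made with an Illumina TruSeq kit per the labels' protocols. Per the submitters' processing notes, HISAT2 2.0.5 and the build mm10 were used; no counting program or strand setting is stated in the labels. Per the file headers, the authors deposited a table of raw gene counts with gene lengths beside them. It runs from a total of 3653827 down to 8471 and ends inside its last row. The lengths deposited by the authors, a column of other values, served for CPM per kilobase. Names of 11 genes, written as dates or incomplete, were restored from gene IDs.

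Counts were fitted with edgeR 4.0.16 in R 4.3.3 on all 9 libraries at once, with a mean per group, TMM factors (0.753 to 1.10), filterByExpr (all listed genes kept) and robust quasi-likelihood estimation. Benjamini-Hochberg adjustment ran over all genes within each comparison, with a threshold of 0.05. Each SE was derived from the estimate and its F statistic. The common dispersion was 0.161. Log2 CPM used a prior count of 2. The method was tested on simulated counts. No pair of libraries in a group was near-identical (chi-square per degree of freedom at least 71.5). Tried as alternatives were DESeq2 1.42.0, voom in limma 3.58.1, other scalings and filters, non-robust estimation, fits of only 2 groups, each library left out, CPX 4 with CPX 6 left out, and a block by title number. The members and gene lists were chosen with earlier results of these data known. Named were all members with a row, up to 6 genes per related list by smallest p in the any-difference test, the 2 nearest profiles per member, and Fos, Egr1 and Dusp1; Cyr61 and Jun were also named, after their values were seen. Values of some genes that the rule would name are not reported here.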

Additional observations from a re-analysis of the deposited data

How the results depend on the processing

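DESeq2 called 49 genes for EA minus MPX, 5 for EA minus CPX, 201 for MPX minus CPX and 98 for any difference, with 1 clock gene, Noct, in each of the last 2 comparisons. With only EA and MPX in the fit 84 genes were called, and with CPX 4 and CPX 6 left out 80 (18 for any difference). Leaving out each library gave 0 to 23 genes for EA minus MPX and 0 to 12 for EA minus CPX, with 23 and 12 without CPX 6. It gave 0 to 168 genes and 0 to 1 clock genes for MPX minus CPX, with 168 and 1 without CPX 8, and 0 to 22 genes for any difference, with 22 without CPX 6. Neither filter removed a gene, so filters say nothing about stability.

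EA and MPX share the numbers 5 and 7, and EA and CPX the number 8. The deviations of same-numbered libraries correlated at 0.0222 (number 5), 0.125 (number 7) and -0.506 (number 8). Libraries with different numbers were not compared in this way, so these values cannot decide whether a shared number marks a pairing. With number as a replicate block, which leaves 1 residual degree of freedom, 6 genes were called for EA minus MPX and 6 for any difference, and no clock gene. Under the block Nr1d1 turned to 0.15 for EA minus MPX, and for EA minus CPX Per1 turned to -0.098, Per3 to -1.28 and Tef to -0.58. MPX and CPX share no number.

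Of the 21 differences of clock genes 9 kept their sign in every alternative, among them all 3 of Noct. With upper quartile scaling Nr1d2 turned to 0.015 for EA minus CPX and Per3 to 0.041 for MPX minus CPX. With no scaling beyond column sums, which moved the median of all genes for EA minus CPX from -0.09 to 0.10, Per1 turned to 0.066 for EA minus MPX, Nr1d1 to 0.046 and Nr1d2 to 0.15 for EA minus CPX, and Per3 to 0.11 for MPX minus CPX. With limma voom Per1 turned to 0.031 for EA minus MPX and Per3 to 0.42 for MPX minus CPX. With CPX 4 and CPX 6 left out, where the lone CPX library is assumed to vary like the other groups, Per3 turned to -0.39 and Tef to -0.081 for EA minus CPX, and Clock to -0.064 for MPX minus CPX. Leaving out 1 library moved Per1 between -0.40 and 0.24 and Per3 between -0.0036 and 0.78 for EA minus MPX. For EA minus CPX it moved Clock between -0.33 and 0.027, Nr1d1 between -0.63 and 0.12, Nr1d2 between -0.36 and 0.18, Per3 between -0.10 and 0.96 and Tef between -0.19 and 0.48. For MPX minus CPX it moved Nr1d1 between -0.12 and 0.65 and Per3 between -0.49 and 0.60. Of the log2 ratios to Clock, leaving out 1 library changed the sign of Nr1d1 for EA minus MPX (-0.47 to 0.36), EA minus CPX (-0.40 to 0.55) and MPX minus CPX (-0.45 to 0.55), of Nr1d2 for EA minus CPX (-0.07 to 0.48), and of Per1 (-0.12 to 0.65) and Per3 (-0.75 to 0.32) for MPX minus CPX. The cause of these changes was not tested.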
